A study of Acartia tonsa with 26 samples.

Results

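Small heat shock proteins were followed through 5 of the 9590 genes that the deposited tables of the egg transcriptome of the copepod Acartia tonsa hold. The genes were taken by their assembly identifiers, each of which names a small heat shock protein as the best protein match and carries the HSP20 domain. DN3843_c0_g1 and DN12651_c0_g1 both match Drosophila lethal(2)essential for life (L2EFL_DROME), DN1337_c0_g1 matches Drosophila heat shock protein 27 (HSP27_DROME) with L2EFL_DROME as a further match, DN21453_c0_g1 matches pig heat shock protein beta-1 (HSPB1_PIG) and DN55100_c0_g1 matches the ascidian muscle protein HR-29 (HR29_HALRO). All 5 stand in the table of genes that changed among subitaneous eggs (9502 genes), and DN3843_c0_g1, DN12651_c0_g1 and DN1337_c0_g1 also in the table of genes that differed in quiescent eggs (2777 genes).

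The study sequenced the RNA of whole batches of eggs in 26 libraries. Quiescent eggs, kept at 4 °C without oxygen and sampled at 26 h, gave 3 libraries (A, C and D) and are labelled as gastrulae. Subitaneous eggs, which develop without pause under the rearing conditions, gave 5 libraries at 3 h (cleavage, A to E), 5 at 7 h (gastrulation, A to E), 4 at 14 h (organogenesis, A, B, C and E), 4 at 24 h (appendage formation, A to D) and 5 at 42 h (nauplii close to hatching, A to E). All eggs came from 1 population, reared without light at 16.9 °C and a salinity of 32 in 60 L of water per tank, and the labels name no genotype or strain. The series describes its replicates as technical, so the p-values below cover the spread between such samples and not that between independent cultures.

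Small heat shock proteins are chaperones that bind unfolding proteins and hold them soluble without using ATP, until ATP-driven chaperones such as HSP70 refold them. They share the alpha-crystallin or HSP20 domain and form large oligomers. In Drosophila several of them are made both after heat and at set times of normal development, and in the encysted embryos of the brine shrimp Artemia, another crustacean, the small heat shock protein p26 is a major protein of the dormant stage.

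Values are the normalized read numbers that the authors deposited, in which 1 read is worth 0.00894 to 0.0122 depending on the library; 81.8 to 112 reads make a value of 1. They are not divided by transcript length, and levels are therefore compared between groups for 1 gene and not between genes. The tables hold 4.30e+06 to 2.42e+07 reads per library. Summed over the marker genes of each stage, linker histones had a median of 18.4 at 7 h and 599.7 at 3 h, cyclin B 12.9 at 42 h and 59.8 at 3 h, myosin heads 588.7 at 24 h and 96.9 at 3 h, and cuticle proteins 1486 at 42 h and 132.6 at 3 h. In quiescent eggs these sums had medians of 38.4, 26.9, 146.4 and 156.2 in the same order, and genes whose best match lies in a plant, fungus, protist or bacterium summed to a median of 5260, against 4571 at 7 h. Myosin heads did not stay high after 24 h. At 42 h their median was 216.6 (279.6 without library D), below the 324.2 of 14 h eggs, and 42 h B had 64.5. One library stood apart: 42 h D had a rank correlation of 0.302 with the average of its group without it, against 0.774 to 0.941 for every other library with its own group, and its cuticle sum was 106.3 where the other 42 h libraries had 835.9 to 3363. Its rank correlation was 0.836 with the average of 3 h eggs, 0.834 with that of quiescent eggs and 0.745 with that of 7 h eggs. It was thus more like these groups than like its own, and the cause was not tested. The 42 h means of genes with an HSP20 domain and their changes from 24 h to 42 h are given with and without 42 h D where it moved them.

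The 5 genes had 2 kinds of time course. DN3843_c0_g1, DN12651_c0_g1 and DN1337_c0_g1, called the peaking genes here, were low at 3 h, 7 h and 24 h and high at 14 h and 42 h, and quiescent eggs had them at levels above 3 h, 7 h and 24 h eggs. DN21453_c0_g1 and DN55100_c0_g1 had their highest mean at 3 h, and each later stage had a mean below 1.

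**Figure D1:**
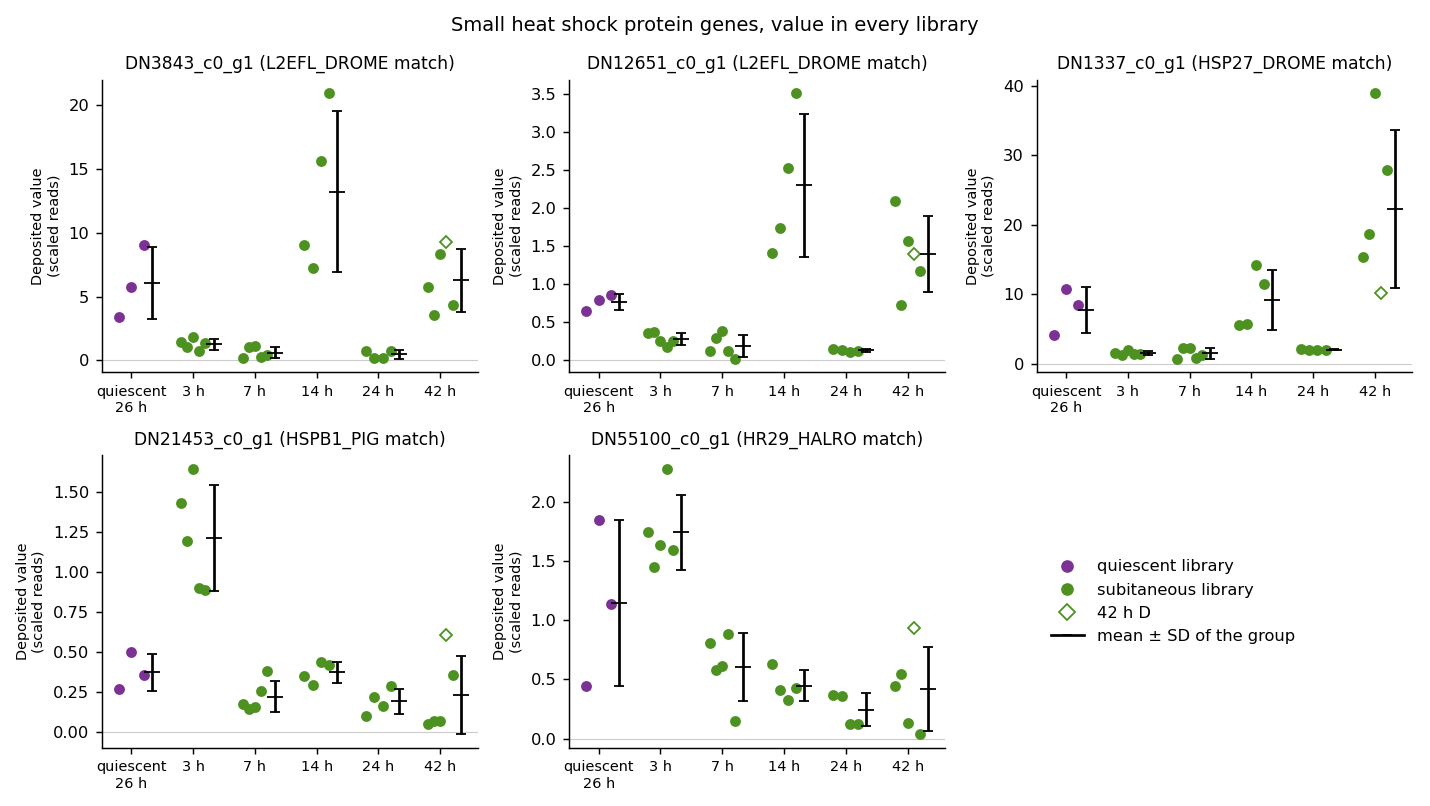
Deposited value (scaled reads) of each of the 5 small heat shock protein genes in every library, quiescent eggs in purple and subitaneous eggs in green in order of time, with the group mean ± SD beside the points and 42 h D as an open diamond. The first 3 panels have peaks at 14 h and 42 h (DN3843_c0_g1 averages 0.457 at 24 h and 13.2 at 14 h), and the panels of DN21453_c0_g1 and DN55100_c0_g1 have their highest mean at 3 h (DN21453_c0_g1 averages 1.21).

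DN3843_c0_g1, a match of the Drosophila gene lethal(2)essential for life, whose product is a small heat shock protein, had 3.39, 5.72 and 9.01 in quiescent eggs A, C and D. In subitaneous eggs it had 1.42, 1.02, 1.84, 0.717 and 1.35 at 3 h and 0.159, 1.003, 1.12, 0.247 and 0.435 at 7 h, both A to E. The 3 h and 7 h libraries overlapped, and all of them were below every quiescent library. At 14 h the gene had 9.04, 7.22, 15.7 and 20.97 (A, B, C and E). At 24 h it had 0.745, 0.185, 0.145 and 0.754 (A to D), and at 42 h 5.78, 3.58, 8.36, 9.30 and 4.37 (A to E). Every 14 h and 42 h library was thus above every 24 h library, without overlap, and 42 h D was the highest of its group for this gene; without it the 42 h mean was 5.52 ± 2.10 (n = 4). The means ± SD were 6.04 ± 2.82 (n = 3) in quiescent eggs and 1.27 ± 0.425 (n = 5), 0.592 ± 0.441 (n = 5), 13.2 ± 6.31 (n = 4), 0.457 ± 0.338 (n = 4) and 6.28 ± 2.48 (n = 5) from 3 h to 42 h. In descending order the groups were 14 h, 42 h, quiescent, 3 h, 7 h and 24 h, and the ranges of neighbours in that order overlapped except between quiescent and 3 h eggs. Without 42 h D, the 42 h mean was below the quiescent one.

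DN12651_c0_g1 carries the same best match as DN3843_c0_g1 and had 0.645, 0.8 and 0.853 in quiescent eggs A, C and D. It had 0.353, 0.371, 0.253, 0.177 and 0.250 at 3 h and 0.120, 0.297, 0.380, 0.119 and 0.021 at 7 h. The 3 quiescent libraries lay close together and above every 3 h and 7 h library; the 7 h E value rests on 2 reads. At 14 h the gene had 1.41, 1.74, 2.53 and 3.52, at 24 h 0.154, 0.139, 0.106 and 0.127, and at 42 h 2.09, 0.734, 1.57, 1.40 and 1.18. Every 14 h and 42 h library was again above every 24 h library. The means ± SD were 0.766 ± 0.108 in quiescent eggs and 0.281 ± 0.0804, 0.187 ± 0.147, 2.30 ± 0.937, 0.132 ± 0.0203 and 1.40 ± 0.501 from 3 h to 42 h, with the n given above, and 1.39 ± 0.578 at 42 h without 42 h D. The order of the groups was that of DN3843_c0_g1, and the gap between quiescent and 3 h eggs was again the one break between neighbours. How alike the sequences of DN3843_c0_g1 and DN12651_c0_g1 are is not known here. If they are near-identical, reads could be counted at either gene. How the authors' counting treated such reads is not given, so the split between these genes is uncertain.

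DN1337_c0_g1, whose best match HSP27 is found in the nucleus of Drosophila cells, had 4.11, 10.8 and 8.402 in quiescent eggs A, C and D. It had 1.60, 1.31, 1.99, 1.46 and 1.42 at 3 h and 0.737, 2.34, 2.32, 0.897 and 1.24 at 7 h. Quiescent eggs were above all of these, and the 7 h libraries spread on both sides of the 3 h ones. At 14 h it had 5.59, 5.68, 14.2 and 11.5, at 24 h 2.13, 2.00, 2.06 and 1.97, and at 42 h 15.4, 18.7, 39.0, 10.1 and 28.0. The 42 h libraries were all above the 24 h ones, and the lowest of them was 42 h D. The means ± SD were 7.76 ± 3.37 in quiescent eggs and 1.56 ± 0.265, 1.51 ± 0.774, 9.25 ± 4.32, 2.04 ± 0.0717 and 22.2 ± 11.4 from 3 h to 42 h. In descending order these were 42 h, 14 h, quiescent, 24 h, 3 h and 7 h, with overlapping ranges between neighbours except between quiescent and 24 h eggs. Without 42 h D, the 42 h mean was 25.3 ± 10.6 (n = 4), and every 42 h library was above every 14 h library.

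DN21453_c0_g1, a match of HSPB1 (known in humans as HSP27, an abundant small heat shock protein of muscle and stressed cells), had 0.271, 0.5 and 0.359 in quiescent eggs A, C and D. At 3 h it had 1.43, 1.20, 1.65, 0.904 and 0.887, and at 7 h 0.179, 0.143, 0.158, 0.256 and 0.382. Every 3 h library was above every library of the other groups. The gene had 0.353, 0.293, 0.438 and 0.420 at 14 h, 0.1, 0.222, 0.165 and 0.287 at 24 h, and 0.051, 0.073, 0.072, 0.609 and 0.357 at 42 h. The 42 h value of 0.609 belongs to library D, and without it the 42 h mean was 0.138 ± 0.146 (n = 4) in place of 0.232 ± 0.246 (n = 5). The other means ± SD were 0.377 ± 0.116 in quiescent eggs and 1.21 ± 0.331, 0.224 ± 0.0987, 0.376 ± 0.0663 and 0.194 ± 0.0798 from 3 h to 24 h. After 3 h eggs, the order was quiescent, 14 h, 42 h, 7 h and 24 h, and all neighbours in it overlapped. Without 42 h D, 42 h eggs came last. Few reads lie behind these values outside 3 h, 5 to 56 per library at 42 h and 85 to 146 at 3 h.

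DN55100_c0_g1, a match of HR-29, a small heat shock protein family member of ascidian body wall muscle, had 0.449, 1.85 and 1.14 in quiescent eggs A, C and D. It had 1.75, 1.45, 1.64, 2.28 and 1.60 at 3 h and 0.807, 0.584, 0.612, 0.888 and 0.149 at 7 h. The 3 h libraries were all above the 7 h ones, and the quiescent libraries ran from within the 7 h range to within the 3 h range. At 14 h the gene had 0.629, 0.407, 0.329 and 0.429, at 24 h 0.373, 0.360, 0.126 and 0.127, and at 42 h 0.445, 0.550, 0.134, 0.935 and 0.036. The means ± SD were 1.14 ± 0.698 in quiescent eggs and 1.74 ± 0.318, 0.608 ± 0.287, 0.449 ± 0.128, 0.247 ± 0.139 and 0.420 ± 0.358 from 3 h to 42 h. The order was 3 h, quiescent, 7 h, 14 h, 42 h and 24 h, and every pair of neighbours overlapped. The highest 42 h value was that of library D, and the 42 h mean without it was 0.291 ± 0.245 (n = 4).

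Gastrulating eggs at 7 h were compared with cleaving eggs at 3 h. DN21453_c0_g1 and DN55100_c0_g1 fell, to means of 0.224 and 0.608 at 7 h, against 1.21 and 1.74 at 3 h, 5.42-fold and 2.86-fold lower by the ratio of means. On the log2(value + 1) scale, which understates changes of low values, the changes were -0.85 ± 0.14 (SE, adjusted p = 4.72e-05) for DN21453_c0_g1 and -0.78 ± 0.20 (adjusted p = 0.00592) for DN55100_c0_g1. The other 3 genes did not pass the test, with changes of -0.53 for DN3843_c0_g1, -0.12 for DN12651_c0_g1 and -0.08 for DN1337_c0_g1. A call needs an adjusted p under 0.05 over all 5201 genes tested, of which 11.1% were lower at 7 h, against 2 of these 5. Genes were tested if they reached a value of 1 in 3 or more libraries. DN21453_c0_g1 did so only in 3 h A, B and C (1.43, 1.20 and 1.65), and DN55100_c0_g1 would not have without its 3 h libraries. Both were thus tested because they were high at 3 h. Their calls as lower at 7 h are partly set by this filter and cannot be read against that share. DN55100_c0_g1 stayed lower but lost its call with quantile normalization (log2 change -0.55, adjusted p = 0.0931), with edgeR (-1.52, 0.242), with DESeq2 (-1.43, 0.191) and with edgeR on the deposited scaling (-1.52, 0.0913), and DN21453_c0_g1 with edgeR (-2.48, 0.0584). Apart from 3 h A, 3 h B and 42 h B, libraries with letters A or B have sheet numbers that the labels also give to C, D or E. Differences are therefore also given within letters A and B and within letters C to E. Within letters A and B they were -0.99 for DN21453_c0_g1 and -0.62 for DN55100_c0_g1, and within letters C to E they were -0.75 and -0.89.

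From gastrulation to organogenesis, 14 h eggs against 7 h eggs, the 3 peaking genes rose together. DN3843_c0_g1 averaged 13.2 at 14 h and 0.592 at 7 h (22.3-fold), DN12651_c0_g1 2.30 at 14 h and 0.187 at 7 h (12.3-fold), and DN1337_c0_g1 9.25 at 14 h and 1.51 at 7 h (6.13-fold). For each of them, every 14 h library was above every 7 h library. The log2 changes were 3.09 ± 0.33 (adjusted p = 3.43e-07), 1.44 ± 0.18 (2.27e-06) and 1.99 ± 0.36 (0.000155) in that order, where the median gene moved by 0.41. Of all genes tested 21.1% were called higher, against 3 of these 5. These 3 are also in the table of quiescent genes, where 62.7% of the 1682 genes tested were called higher and the median gene moved by 0.93. Among the genes of that table such a rise was thus common. DN12651_c0_g1 reached a value of 1 only in the 14 h libraries and in 42 h A, C, D and E. The filter on low values thus partly sets its call as higher at 14 h, which cannot be read against these shares. DN21453_c0_g1 (0.17) and DN55100_c0_g1 (-0.13) did not pass, although DN55100_c0_g1 was called lower with quantile normalization (-0.80, adjusted p = 0.0147). The rise was larger within letters C to E than within letters A and B: 3.62 and 2.58 for DN3843_c0_g1, 1.78 and 1.09 for DN12651_c0_g1, and 2.51 and 1.46 for DN1337_c0_g1, a difference that was not tested. The eggs were sequenced whole, so more cells of a type and more RNA per cell cannot be told apart here or below.

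When appendages formed, in 24 h eggs against 14 h eggs, the same 3 genes fell back. DN3843_c0_g1 averaged 0.457 at 24 h and 13.2 at 14 h, 28.9-fold lower, which is a log2 change of -3.21 ± 0.35 (adjusted p = 1.37e-06). DN12651_c0_g1 was 17.5-fold lower (-1.50 ± 0.19, adjusted p = 5.68e-06) and DN1337_c0_g1 4.54-fold lower (-1.66 ± 0.38, adjusted p = 0.0032). Over all genes 9.61% were called lower and the median change was -0.03. In the table of quiescent genes, which also holds these 3, 31.5% were called lower and the median change was -0.54. DN12651_c0_g1 passed the filter on low values only through 14 h and 42 h libraries, which partly sets its call as lower at 24 h. The 24 h libraries of DN1337_c0_g1 spanned no more than 1.97 to 2.13, while its 14 h libraries spanned 5.59 to 14.2. DN21453_c0_g1 (-0.21) and DN55100_c0_g1 (-0.22) did not pass, although the ranges of DN21453_c0_g1 did not overlap (0.1 to 0.287 at 24 h, 0.293 to 0.438 at 14 h). Within letters A and B, DN3843_c0_g1, DN12651_c0_g1 and DN1337_c0_g1 differed by -2.66, -1.17 and -1.12, and within letters C to E by -3.75, -1.84 and -2.20. This comparison shares its 14 h libraries with the one before it, and the next shares its 24 h libraries with this one.

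Before hatching, in 42 h eggs against 24 h eggs, DN3843_c0_g1, DN12651_c0_g1 and DN1337_c0_g1 rose again. DN3843_c0_g1 averaged 6.28 at 42 h and 0.457 at 24 h (13.7-fold), DN12651_c0_g1 1.40 at 42 h and 0.132 at 24 h (10.6-fold), and DN1337_c0_g1 22.2 at 42 h and 2.04 at 24 h (10.9-fold). The log2 changes were 2.28 ± 0.33 (adjusted p = 8.26e-05), 1.06 ± 0.18 (0.000267) and 2.80 ± 0.36 (2.36e-05) in that order, where the median gene moved by 0.66. Since 44.9% of all genes tested were called higher, 3 of 5 genes is close to the background here. The filter on low values also partly sets the call of DN12651_c0_g1, which passed it only through 14 h and 42 h libraries. DN12651_c0_g1 lost its call with quantile normalization (log2 change 0.48, adjusted p = 0.0901) and with the spread of these groups alone (adjusted p = 0.0515). Without 42 h D the changes were 2.14, 1.05 and 3.03, all called, and within letters A and B they were 1.95, 1.01 and 2.55, against 2.50, 1.09 and 2.96 within letters C to E. DN21453_c0_g1 (0.03, and -0.07 without 42 h D) and DN55100_c0_g1 (0.16, and 0.04 without 42 h D) did not pass.

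**Figure D2:**
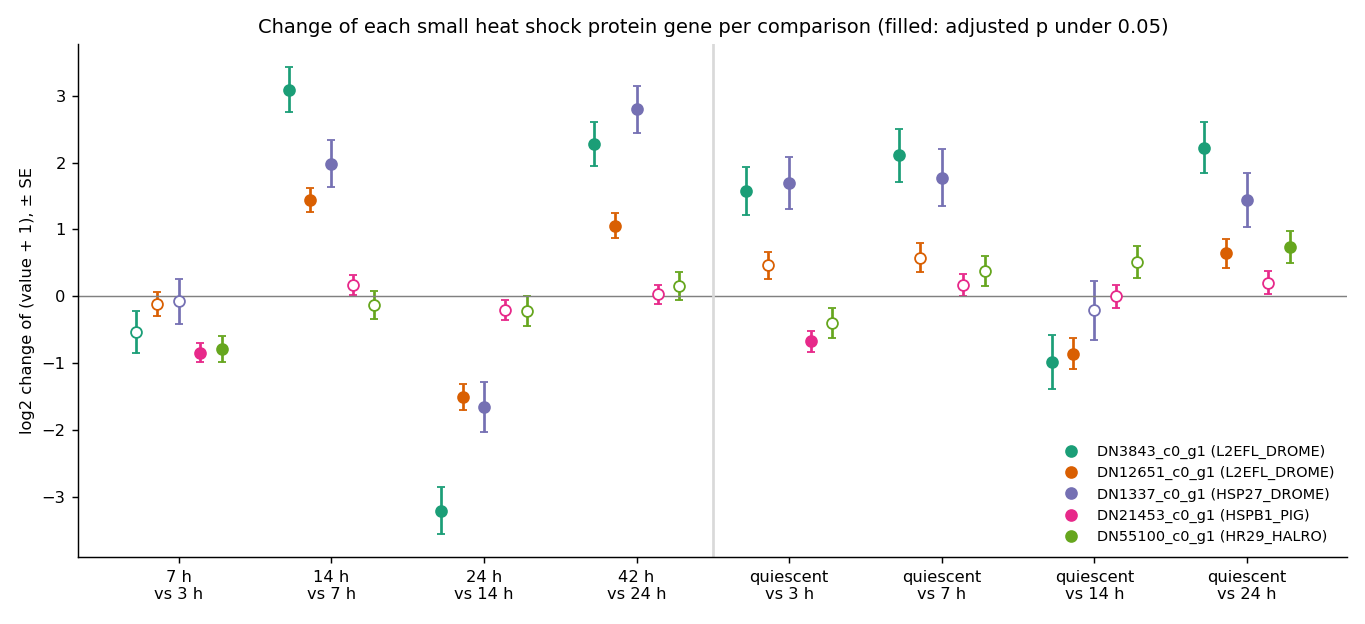
Log2 change of (value + 1) ± SE (vertical axis) of the 5 small heat shock protein genes in each of the 8 comparisons (horizontal axis), stages left of the grey line and quiescent eggs right of it; filled points had an adjusted p under 0.05. DN3843_c0_g1 moves by 3.09, -3.21 and 2.28 over the last 3 steps between stages and, at the far right, stands 2.22 higher in quiescent than in 24 h eggs.

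Quiescent eggs were set against 7 h eggs, the stage whose name they share, and the comparisons that follow use the same 3 quiescent libraries. DN3843_c0_g1 and DN1337_c0_g1 were higher in quiescent eggs, with means of 6.04 and 7.76, against 0.592 and 1.51 at 7 h, 10.2-fold and 5.14-fold. In the table of quiescent genes the log2 changes were 2.11 ± 0.39 (adjusted p = 0.00138) and 1.78 ± 0.43 (0.0121). Of the 1682 genes tested there 3.86% were called higher and the median gene moved by 0.20. The table holds 3 of the 5 genes, and the authors chose its genes for a difference of quiescent eggs from 7 h or 14 h eggs, so these calls are not independent evidence. DN12651_c0_g1 did not pass (0.58 ± 0.22, adjusted p = 0.159), although every quiescent library was above every 7 h library; it passed without 42 h D (0.0336), with a pseudocount of 0.1 (0.0216), with edgeR on the deposited scaling (0.0159) and with the spread of these groups alone (0.00782). DN21453_c0_g1 (0.17) and DN55100_c0_g1 (0.38), tested in the subitaneous table, did not pass, and 0.288% of genes were called higher in that table. DN1337_c0_g1 lost its call without quiescent C (adjusted p = 0.121) or quiescent D (0.0816), with quantile normalization (0.413) and with edgeR (0.125), and DN3843_c0_g1 with quantile normalization (0.104) and edgeR (0.0805).

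Against 3 h eggs, quiescent eggs had more DN3843_c0_g1 and DN1337_c0_g1 and less DN21453_c0_g1. The means in quiescent and 3 h eggs were 6.04 and 1.27 for DN3843_c0_g1 (4.76-fold), 7.76 and 1.56 for DN1337_c0_g1 (4.99-fold), and 0.377 and 1.21 for DN21453_c0_g1 (3.22-fold lower), and the ranges of the groups did not overlap for any of them. The log2 changes were 1.57 ± 0.36 (adjusted p = 0.00446), 1.70 ± 0.39 (0.0041) and -0.68 ± 0.16 (0.00619). Among 5201 genes 0.442% were called higher and 5.83% lower, or 23 genes higher, 2 of them from this family. In the table of quiescent genes, which also holds DN3843_c0_g1 and DN1337_c0_g1, 1.78% were called higher. DN21453_c0_g1 passed the filter on low values only through 3 h libraries, which partly sets its call as lower. The changes of DN12651_c0_g1 (0.46) and DN55100_c0_g1 (-0.40) did not pass, the first of them passing with the spread of these groups alone (adjusted p = 0.00624). The test of DN3843_c0_g1 was lost without quiescent D (adjusted p = 0.0813), with edgeR (0.292), with DESeq2 (0.129) and with edgeR on the deposited scaling (0.052), and that of DN1337_c0_g1 without quiescent C (0.0612). DN21453_c0_g1 lost its call without quiescent A (0.0602), with a pseudocount of 0.1 (0.0821) and with the 3 fits on whole reads (0.268 to 0.494). Within letters A and B, DN3843_c0_g1, DN1337_c0_g1 and DN21453_c0_g1 differed by 0.99, 1.06 and -0.86, and within letters C to E by 1.86, 2.01 and -0.57.

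Quiescent and 24 h eggs are close in age but not in stage. DN3843_c0_g1 (6.04 in quiescent, 0.457 in 24 h eggs, 13.2-fold), DN12651_c0_g1 (0.766 in quiescent, 0.132 in 24 h eggs, 5.83-fold), DN1337_c0_g1 (7.76 in quiescent, 2.04 in 24 h eggs, 3.81-fold) and DN55100_c0_g1 (1.14 in quiescent, 0.247 in 24 h eggs, 4.64-fold) were higher in quiescent eggs, without overlap of the groups. Their log2 changes were 2.22 ± 0.38 (adjusted p = 0.00074), 0.64 ± 0.21 (0.0291), 1.45 ± 0.41 (0.0127) and 0.74 ± 0.24 (0.0266). Over all genes 8.04% were called higher and the median gene moved by -0.31. In the table of quiescent genes, which holds DN3843_c0_g1, DN12651_c0_g1 and DN1337_c0_g1, 16.4% were called higher and the median gene moved by -0.11. DN21453_c0_g1 (0.21) did not pass. Within letters A and B the 4 differences were 1.61, 0.52, 0.74 and 0.08, and within letters C to E they were 2.53, 0.71, 1.80 and 1.13. The calls of the last 3 genes depend on single libraries: leaving out quiescent C gave adjusted p = 0.086, 0.0832 and 0.191 for DN12651_c0_g1, DN1337_c0_g1 and DN55100_c0_g1, and leaving out quiescent D gave 0.095, 0.0539 and 0.0825. Without 24 h C they were lost for DN12651_c0_g1 (0.06) and DN55100_c0_g1 (0.0659), and DN55100_c0_g1 was also lost without 24 h D (0.0557). DN12651_c0_g1 was lost without quiescent A (0.0566), 24 h A (0.0563) or 24 h B (0.0581). DN3843_c0_g1 passed in each of the 37 alternative fits, with adjusted p of at most 0.0172.

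Set against 14 h eggs, where DN3843_c0_g1 and DN12651_c0_g1 had their highest means, the result depends on how libraries are scaled to each other. As deposited, DN3843_c0_g1 averaged 6.04 in quiescent and 13.2 in 14 h eggs (log2 change -0.98 ± 0.41, adjusted p = 0.0387) and DN12651_c0_g1 0.766 in quiescent and 2.30 in 14 h eggs (-0.86 ± 0.23, adjusted p = 0.00379). DN1337_c0_g1 averaged 7.76 in quiescent and 9.25 in 14 h eggs (-0.21, adjusted p = 0.647). Of all genes tested there, 48.6% were called lower in quiescent eggs and the median gene moved by -0.76, so 2 lower genes among these is near the background. DN12651_c0_g1 passed the filter on low values only through 14 h and 42 h libraries, which partly sets its call as lower. After rescaling to the median ratio the median gene moved by -0.07, and the changes turned to 0.77 for DN3843_c0_g1, 0.25 for DN12651_c0_g1 and 1.51 (adjusted p = 0.00263) for DN1337_c0_g1. DESeq2, which also scales by median ratios, gave the same 3 signs. Both take their scaling from the table of quiescent genes alone, which the authors chose for a difference in quiescent eggs. Such scaling assumes that most of these genes do not change. With edgeR on the deposited scaling DN3843_c0_g1 stayed lower (-1.13) but was not called. Which scaling is right for whole eggs was not tested. DN3843_c0_g1 also lost its call without quiescent A (0.2), quiescent C (0.0799), 14 h C (0.0927) or 14 h E (0.133), with a pseudocount of 0.1 (0.114), with edgeR on the deposited scaling (0.151), with the spread of these groups alone (0.0501) and in the other table (0.0749). In the subitaneous table DN55100_c0_g1 (0.52) and DN21453_c0_g1 (0.00) did not pass; DN55100_c0_g1 was called higher in quiescent eggs after median-ratio rescaling (0.98, adjusted p = 0.0298), with quantile normalization (0.99, adjusted p = 0.017) and without 42 h D (adjusted p = 0.0432). Within letters A and B, DN3843_c0_g1 and DN12651_c0_g1 differed by -1.05 and -0.64, and within letters C to E by -1.22 and -1.13.

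Within the quiescent group, library A had the lowest value of all 5 genes, at 3.39, 0.645, 4.11, 0.271 and 0.449 in the order in which the genes were introduced. Summed over the 5 genes, quiescent eggs had 16.1 ± 6.25 and ranged from 8.87 to 19.8. The sums were 6.06 ± 0.872 in 3 h eggs, 3.12 ± 1.25 in 7 h eggs, 25.6 ± 10.99 in 14 h eggs, 3.07 ± 0.394 in 24 h eggs and 30.6 ± 11.4 in 42 h eggs. Library A is the one quiescent library with a letter from A and B. Against 7 h eggs of the same letters, DN3843_c0_g1 differed by 1.53 for A and B and by 2.39 for C to E on the log2 scale, and DN1337_c0_g1 by 1.09 and 2.12. With 1 quiescent library among A and B, that value has no replicate.

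DN3843_c0_g1 and DN12651_c0_g1 moved together over the 26 libraries (Pearson's r 0.944 of log2(value + 1), Spearman's rho 0.943), as a description over libraries that share groups and scaling. The ratio of DN3843_c0_g1 to DN12651_c0_g1 had a median of 7.15 (5.26 to 10.6) in quiescent eggs. Its medians were 4.05 (2.75 to 7.28) in 3 h eggs, 2.94 (1.33 to 20.7) in 7 h eggs, 6.08 (4.15 to 6.40) in 14 h eggs, 3.10 (1.33 to 5.94) in 24 h eggs and 4.88 (2.76 to 6.63) in 42 h eggs. The ranges of all groups overlapped, and the highest ratio comes from 7 h E, where 2 reads of DN12651_c0_g1 were counted. DN1337_c0_g1 correlated with this pair at r 0.809 and 0.8004. DN21453_c0_g1 and DN55100_c0_g1 correlated with each other at r 0.722, and at r from -0.34 to -0.04 with the other 3 genes.

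**Figure D3:**
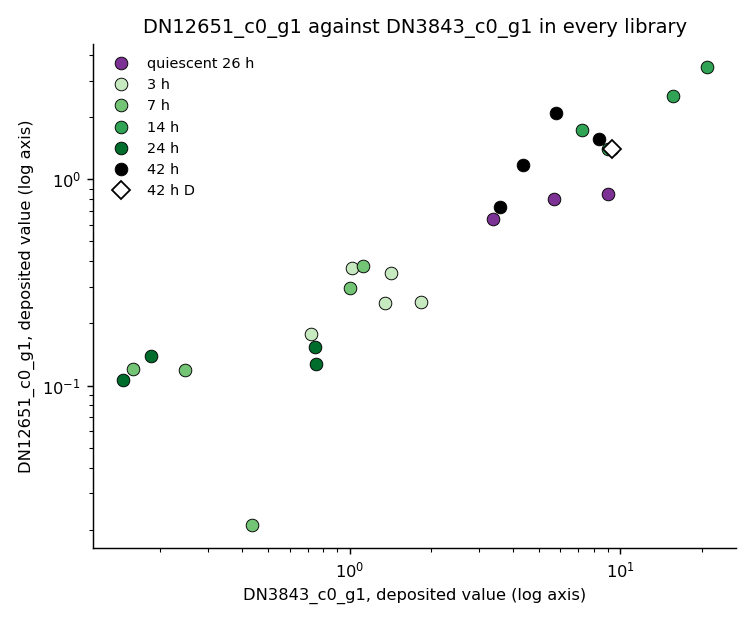
Deposited value of DN12651_c0_g1 (vertical, log axis) against DN3843_c0_g1 (horizontal, log axis), whose best match is lethal(2)essential for life in both cases; each point is 1 of the 26 libraries, coloured by group, with 42 h D as an open diamond, which lies over the 14 h A point. Points run along 1 diagonal from 24 h and 7 h to 14 h, and the lowest point is 7 h E at 0.021.

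Genes with the most similar course were looked for among 1797 tested genes with a protein match, by Pearson's r of log2(value + 1) over the 26 libraries. Nearest to DN3843_c0_g1 were 2 matches of sequestosome-1, an autophagy receptor that binds ubiquitin-tagged protein, DN3444_c0_g1 (r 0.945) and DN2283_c0_g1 (r 0.913), and a match of an Arabidopsis Nudix hydrolase, DN6867_c0_g1 (r 0.928). DN3444_c0_g1 averaged 8.10 ± 2.86 in quiescent eggs, 14.4 ± 7.07 at 14 h and 1.23 ± 0.382 at 24 h. It was also near DN12651_c0_g1 (r 0.904), after matches of the kinase PIM1 (DN4267_c0_g1, r 0.918) and of Drosophila scarface (DN5050_c0_g1, r 0.905).

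The genes most like DN1337_c0_g1 were other chaperones. DN1676_c1_g1 (r 0.959) and DN2709_c2_g2 (r 0.958) match HSP70, which refolds proteins with the use of ATP, and DN3231_c0_g1 (r 0.950) matches DNJB9, a J-domain partner of HSP70 in the endoplasmic reticulum. DN1676_c1_g1 averaged 14.97 ± 4.53 in quiescent eggs and 4.40 ± 0.531, 4.46 ± 1.47, 31.8 ± 11.5, 8.33 ± 2.45 and 75.9 ± 37.1 from 3 h to 42 h, with its highest mean at the same stage as DN1337_c0_g1. For DN21453_c0_g1 the nearest genes were matches of the mannose receptor MRC1 (DN26923_c0_g1, r 0.939), the kinase DAPK1 (DN5349_c0_g1, r 0.932) and the proline-rich protein SPRR3 (DN12806_c0_g1, r 0.926). Those of DN55100_c0_g1 were matches of yeast UAF30 (DN20787_c0_g1, r 0.912), a fucosyltransferase (DN3618_c0_g1, r 0.884) and a bacterial polysaccharide deacetylase (DN4958_c0_g1, r 0.869). The ranks were the same without 42 h D.

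**Figure D4:**
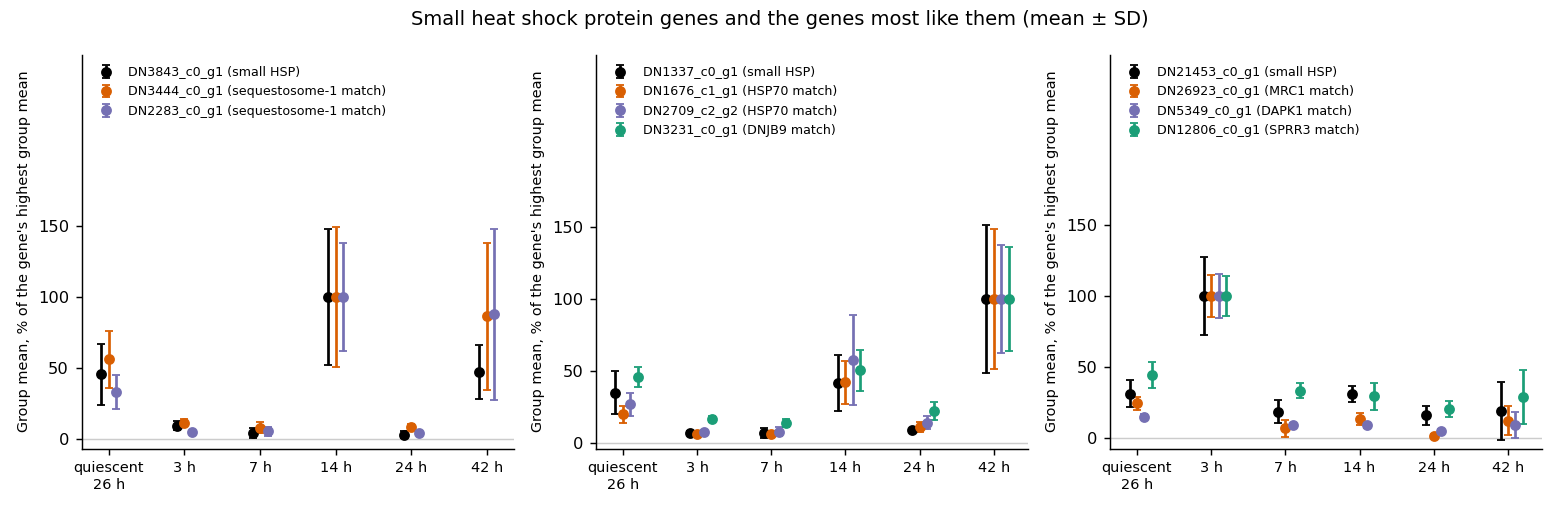
Group mean ± SD of 3 small heat shock protein genes (black) and of genes with a similar course (colours), as a percentage of each gene's highest group mean (vertical axis), in quiescent eggs and the 5 stages (horizontal axis). DN1337_c0_g1 and its 3 neighbours have their highest mean at 42 h (22.2 for DN1337_c0_g1) and a smaller one at 14 h (9.25); DN21453_c0_g1 and its neighbours have theirs at 3 h (1.21).

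The tables hold 4 more genes with an HSP20 domain, which were not among the chosen genes, and none of them had the peaks at 14 h and 42 h with a trough at 24 h. DN6961_c0_g1, which like DN55100_c0_g1 matches HR-29, averaged 1.28 ± 0.334 in quiescent eggs and 1.08 ± 0.115, 0.959 ± 0.312, 2.79 ± 0.722, 4.30 ± 1.26 and 7.46 ± 4.63 from 3 h to 42 h (9.16 ± 3.03 without 42 h D), with its highest mean where DN55100_c0_g1 was low. DN10080_c0_g1, which matches HSPB1 and then lethal(2)essential for life, averaged 0.410 ± 0.0569 in quiescent eggs, 0.313 ± 0.0623 at 3 h and 1.61 ± 1.05 at 42 h (1.95 ± 0.843 without 42 h D). DN4793_c21_g1, a match of Drosophila HSP26, averaged 2.09 ± 0.381 in quiescent eggs, and it fell to 1.96 ± 0.325 at 7 h, against 4.33 ± 0.796 at 3 h (log2 change -0.84 ± 0.27, adjusted p = 0.0367); at 42 h it averaged 1.44 ± 1.12, or 1.02 ± 0.713 without 42 h D. DN14472_c0_g1, whose match is a rice small heat shock protein, rose at 42 h (1.74 ± 1.32, against 0.083 ± 0.0913 at 24 h, log2 change 1.17 ± 0.25, adjusted p = 0.000828) and had no read in 42 h D, without which its 42 h mean was 2.17 ± 1.03 and its log2 change 1.49. These were the 2 calls among these 4 genes, and which of them are called depends on the setting. DN14472_c0_g1 passed the filter on low values only through 42 h A, B and C, which partly sets its call as higher at 42 h. Without 42 h D, DN6961_c0_g1 and DN10080_c0_g1 were also called higher at 14 h against 7 h (0.95 and 0.62) and lower in quiescent than in 24 h eggs (-1.20 and -0.70), DN6961_c0_g1 higher at 42 h against 24 h (0.93), and DN4793_c21_g1 lower at 14 h against 7 h (-0.65) and in quiescent than in 3 h eggs (-0.78). Median-ratio rescaling and quantile normalization also called DN4793_c21_g1 lower at 14 h against 7 h (-1.40 and -1.49) and higher in quiescent than in 24 h eggs (1.28 and 1.06). At 42 h against 24 h these 2 settings, edgeR and DESeq2 called DN10080_c0_g1 lower (-0.30, -0.50, -0.89 and -0.82), where limma on the deposited values gave 0.08. The call of DN4793_c21_g1 was lost after median-ratio rescaling, with quantile normalization, with edgeR and with DESeq2, each of which called 0 of the 4 lower at 7 h, and edgeR called 0 higher at 42 h.

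**Figure D5:**
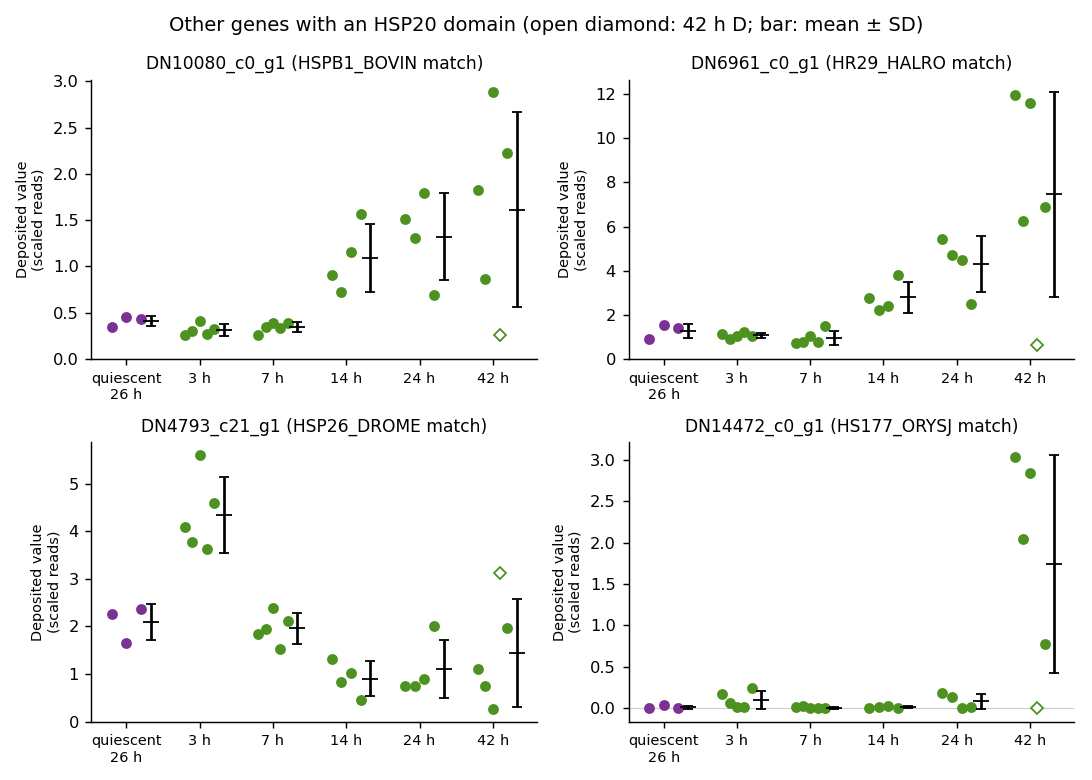
Deposited value (scaled reads) of the 4 other genes with an HSP20 domain in every library, quiescent eggs in purple and subitaneous eggs in green, with the group mean ± SD and 42 h D as an open diamond. DN6961_c0_g1 averages 7.46 at 42 h and 1.08 at 3 h, DN4793_c21_g1 averages 1.44 at 42 h and 4.33 at 3 h, and DN14472_c0_g1 is near 0 outside 42 h.

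The other chaperones numbered 82 genes (HSP70, HSP90, HSP40, chaperonins and heat shock factors), of which the filter left 35 in the subitaneous and 8 in the quiescent table; 47 of the 82 have their best match in a plant, fungus, protist or bacterium. With limma 0 of the 35 passed at 7 h against 3 h (1 at an unadjusted p under 0.05, and edgeR called 1 higher and 6 lower), 11 rose and 0 fell at 14 h against 7 h, 1 rose and 2 fell at 24 h against 14 h, and 28 rose and 1 fell at 42 h against 24 h. Of all genes, 2.83% were called higher at 24 h against 14 h and 5.33% lower at 42 h against 24 h, beside the shares given above. Their median log2 changes in these steps were -0.08, 0.56, 0.08 and 1.44, against -0.06, 0.41, -0.03 and 0.66 for all genes. Without 42 h D the counts that rose and fell were 1 and 1, 19 and 0, 5 and 4, and 33 and 1, and after median-ratio rescaling 1 and 3, 9 and 2, 2 and 2, and 16 and 2; in the last step edgeR called 12 and 2 and DESeq2 14 and 2. DN1676_c1_g1 and DN2709_c2_g2 rose at 14 h (log2 changes 2.56 and 2.44), fell at 24 h (-1.79 and -1.74) and rose at 42 h (2.93 and 2.58), the directions that DN1337_c0_g1 took at the same steps. DN6100_c0_g1, an HSP70 match, rose at 14 h (2.00 ± 0.46, adjusted p = 0.00191), DN1373_c1_g1, another, rose at 24 h (1.24 ± 0.38, adjusted p = 0.0328), and DN76481_c0_g1, whose HSP70 match is a trypanosome protein, rose at 42 h (2.65 ± 0.50, adjusted p = 0.000406).

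Between quiescent eggs and the stages, the other chaperones had 0 to 2 calls higher and 0 to 3 lower per comparison. Against 3 h eggs DN1676_c1_g1 (14.97 ± 4.53 in quiescent, 4.40 ± 0.531 in 3 h eggs, adjusted p = 0.016) and DN2709_c2_g2 (9.20 ± 2.72 in quiescent, 2.61 ± 0.330 in 3 h eggs, adjusted p = 0.0152) were the 2 of 35 that were higher, and DN8447_c0_g1 (20.7 ± 2.43 in quiescent, 63.1 ± 8.76 in 3 h eggs, adjusted p = 0.037), also an HSP70 match, the 1 that was lower. With 0.442% of all genes called higher and 5.83% lower, 2 of 35 is a larger share than the background, as 2 of the 5 small heat shock protein genes is. DN1676_c1_g1 and DN2709_c2_g2 also stand in the table of quiescent genes. There 1.78% of genes were called higher, and 1 of 8 other chaperones was. Against 7 h eggs DN2709_c2_g2 was the 1 of 8 that was higher (adjusted p = 0.0388), where 3.86% of all genes were called higher, and 0 were lower. Against 24 h eggs 0 of 35 were higher and 2 were lower, DN1373_c1_g1 (6.07 ± 0.758 in quiescent, 25.6 ± 3.06 in 24 h eggs) and DN2067_c0_g1 (6.86 ± 0.886 in quiescent, 23.0 ± 4.95 in 24 h eggs), while 4 of the 5 small heat shock protein genes were higher; over all genes 8.04% were called higher and 15.3% lower, and 5 of the 35 had an unadjusted p under 0.05. Against 14 h eggs 0 of 8 were higher and 3 were lower: DN5898_c5_g1, DN5898_c2_g1 and DN32209_c0_g1, a smaller share than the 48.6% of all genes called lower, and none was lower after median-ratio rescaling. All 3 have their best match outside animals, and their values were low. They averaged 0.086, 0.0733 and 0.0427 in quiescent eggs and 1.30, 1.06 and 0.84 in 14 h eggs. Without 42 h D the counts higher and lower were 5 and 1, 2 and 0, 0 and 6, and 0 and 5 in the order given here, and after median-ratio rescaling they were 2 and 1, 0 and 0, 5 and 2, and 0 and 0. Fits with edgeR gave 0 and 1, 0 and 0, 4 and 3, and 0 and 1, so the counts against 24 h eggs depend on the scaling.

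Besides p26, encysted crustacean embryos are known for a ferritin-like protein, for trehalose and for late embryogenesis abundant proteins. Of 6 genes with such a match, the 3 ferritins DN3233_c0_g1, DN4715_c0_g1 and DN8240_c0_g1 passed the filter on low values and the 3 genes of trehalose metabolism did not. At 7 h against 3 h, where 11.1% of all genes were called lower, limma called 0 ferritins (0 at an unadjusted p under 0.05). There 1 was called lower without 42 h D, 2 each after median-ratio rescaling, with edgeR and with DESeq2, and 0 with quantile normalization. All 3 ferritins rose at 14 h against 7 h (1.48, 1.85 and 2.45), as the 3 peaking small heat shock protein genes did. Of all genes 21.1% were called higher there, and 62.7% in the table of quiescent genes, which also holds these ferritins. Median-ratio rescaling, quantile normalization and edgeR called 2 of the ferritins higher and DESeq2 3. At 24 h against 14 h, where the peaking genes fell, limma called 0 ferritins (0 at an unadjusted p under 0.05), edgeR 0 and DESeq2 2 lower. At 42 h against 24 h, where 44.9% of all genes were called higher, 2 rose (DN4715_c0_g1 by 1.33 and DN8240_c0_g1 by 1.36), 3 without 42 h D, 1 after median-ratio rescaling, 0 with quantile normalization or edgeR and 2 with DESeq2. In quiescent eggs limma called 0 ferritins against 3 h or 7 h eggs (0 at an unadjusted p under 0.05, and 0 with edgeR), while DESeq2 called 2 lower against 3 h and 1 lower against 7 h. Against 24 h eggs DN3233_c0_g1 was lower (-1.60, adjusted p = 0.0233), where 15.3% of all genes were; 3 ferritins were called lower without 42 h D, 1 with quantile normalization or DESeq2, and 0 after median-ratio rescaling or with edgeR. Against 14 h eggs all 3 were lower (-1.78, -1.69 and -2.05), where 48.6% of all genes were, a call that quantile normalization kept for 1 and that median-ratio rescaling, edgeR and DESeq2 kept for 0.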

How the data were processed

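RNA of whole egg batches was extracted with RNeasy and made into TruSeq libraries from 0.3 µg, per the labels' protocols. The authors deposited 2 tables of normalized signal per assembled gene, which hold genes past a 2-fold change at alpha 0.001, per the labels. The submitters' processing notes name bcl2fastq and edgeR; for the aligner, counter and scaling, nothing is given in the sources used here. The 2689 genes in both tables had identical values, and 100% of values up to 2000 reads were whole multiples of 1 read (within 0.1 of a step). Columns left unused numbered 0.

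Genes that reached a value of 1 in 3 or more libraries were fitted as log2(value + 1) with limma 3.58.1 (R 4.3.3) over all 6 groups of a table, with Benjamini-Hochberg adjustment over all genes tested (5201 in the subitaneous table, 1682 in the quiescent one); all 5 and all 3 of the small heat shock protein genes passed. Quiescent eggs against 7 h and 14 h were read from the quiescent table, all else from the subitaneous one. Alternatives were a pseudocount of 0.1, no filter, median-ratio and quantile scaling, edgeR 4.0.16 and DESeq2 1.42.0 on whole reads, the replicate letter as a block, the numbering set, the compared groups alone, the other table, and each library left out; edgeR with the deposited scaling was added after the data were seen and called 868, 2328, 368 and 2145 genes between consecutive stages, and 133, 336, 1201 and 1679 for quiescent eggs against 3 h, 7 h, 14 h and 24 h. Scripts were checked on simulated data. Named in the text are the 5 genes, the 3 most correlated genes of each, every other gene with an HSP20 domain, and up to 3 called chaperones with the largest change per comparison. The genes and lists were chosen with earlier results of these data known, and the authors' selection of genes means that calls are not independent evidence. Replicates differed by more than sampling noise (smallest chi-square per degree of freedom 37.9), so none was counted as a repeat.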

Additional observations from a re-analysis of the deposited data

Results flagged for a closer look

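A library was compared with the rest of its group in 45 groups of 4 or 5 libraries, where chance alone sets about 1 in 20 apart, and 2 stood apart. For DN4793_c21_g1, the HSP26 match, 24 h D had 2.01 where the other 24 h libraries had 0.745 to 0.9, a gap of 0.844 of the group's range. For DN6961_c0_g1, one of the HR-29 matches, 42 h D had 0.642 where the other 42 h libraries had 6.24 to 11.96, a gap of 0.718 of the range; this is the library that stood apart over all genes. None of the 5 chosen small heat shock protein genes had such a library.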

How the results depend on the processing

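The calls of DN3843_c0_g1, DN12651_c0_g1 and DN1337_c0_g1 at 14 h against 7 h and at 24 h against 14 h held in all 37 alternatives. Leaving out 1 library gave 2 to 2 calls among the 5 genes at 7 h against 3 h, 3 to 3 in the other steps between stages, and for quiescent eggs 2 to 3 against 3 h, 1 to 3 against 7 h, 1 to 3 against 14 h and 1 to 4 against 24 h. At 7 h against 3 h (2 calls) quantile normalization gave 1, edgeR 0, DESeq2 1 and edgeR on the deposited scaling 1. For quiescent eggs against 3 h (3 calls) the last 3 of these gave 1 each, and against 7 h (2 calls) quantile normalization and edgeR gave 0 each. Against 14 h (2 calls, DN3843_c0_g1 and DN12651_c0_g1 lower) edgeR gave 0. A pseudocount of 0.1, edgeR on the deposited scaling, the compared groups alone and the other table gave 1 each, DN12651_c0_g1 lower. Quantile normalization and DESeq2 also gave 1 each, but higher: DN55100_c0_g1 and DN1337_c0_g1. Median-ratio rescaling gave 2, DN1337_c0_g1 and DN55100_c0_g1, both higher. The sign turned at 7 h against 3 h for DN12651_c0_g1 (0.0078, quantile) and DN1337_c0_g1 (0.26 quantile, 0.029 DESeq2, -0.19 to 0.042 leaving out 1 library). At 14 h against 7 h it turned for DN21453_c0_g1 (-0.12 median-ratio, -0.37 quantile, -0.58 edgeR, -0.45 DESeq2), and at 42 h against 24 h for the same gene (-0.074 pseudocount 0.1, -0.042 quantile, -0.074 to 0.079 leaving out 1 library). For quiescent against 14 h eggs it turned for DN3843_c0_g1 (0.77 median-ratio, 0.31 edgeR, 0.87 DESeq2), DN12651_c0_g1 (0.25 median-ratio, 0.18 quantile, 0.43 DESeq2), DN1337_c0_g1 (1.51 median-ratio, 0.40 quantile, 1.23 edgeR, 1.75 DESeq2, -0.46 to 0.14 leaving out 1 library) and DN21453_c0_g1 (0.32 median-ratio, 0.42 quantile, 1.24 edgeR, 1.06 DESeq2, 0.0017 edgeR on the deposited scaling, -0.065 to 0.055 leaving out 1 library). The cause was not tested. Median-ratio rescaling moved the median gene to 0.06 at 14 h against 7 h, 0.18 at 42 h against 24 h, -0.07 for quiescent against 14 h and -0.03 against 24 h. Except for edgeR on the deposited scaling, these alternative scalings were computed from the deposited genes alone, which the authors chose for a change. Over all genes, the counts called higher and lower were 1095 and 129 at 14 h against 7 h as deposited, 1098 and 643 after median-ratio rescaling and 800 and 1012 with quantile normalization. At 42 h against 24 h they were 2337 and 277, 1338 and 683, and 946 and 858 in the same order, and for quiescent against 14 h eggs 247 and 818, 275 and 75, and 237 and 153. For quiescent against 24 h eggs they were 418 and 795, 740 and 437, and 702 and 870. Pairing of libraries by letter was not taken into the main fit and is not excluded. In no comparison was every same-letter correlation of deviations over 0.1 (range -0.466 to 0.501), but at 7 h against 3 h all were positive (0.078 to 0.477). Correlations between different letters were not computed for comparison. With the replicate block the 5 genes had 2, 3, 3 and 3 calls between stages and 3, 2, 2 and 3 for quiescent against 3 h, 7 h, 14 h and 24 h; the one lost call was DN12651_c0_g1 against 24 h (log2 change 0.62, adjusted p = 0.0562). Depth limits DN12651_c0_g1, DN21453_c0_g1 and DN55100_c0_g1 most, with as few as 2, 5 and 3 reads in a library.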
